A study of Mus musculus with 69 samples.

Results

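Gardiquimod is a small-molecule agonist of Toll-like receptor 7 (TLR7), and its effect on the hippocampus of adult female mice was measured here by sequencing the 3′ ends of mRNA. The comparison set 7 libraries from female wild-type (WT) mice given gardiquimod against 7 from female WT mice given saline, all aged 9.60 months. The members were taken by the treatment, sex and age in the sample labels and make up 14 of the 69 libraries of the series. The same experiment also held 7 gardiquimod and 7 saline libraries from male WT mice aged 12.12 months, which entered the same fit and are used below for a comparison of responses. Because every male was older than every female, sex and age cannot be told apart in that comparison. No dose, route or interval before collection is stated in the labels, and the labels do not name the animal behind each library, so p-values measure the spread between these libraries.

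TLR7 sits in the endosome, binds single-stranded RNA and small agonists of the same class as gardiquimod, and signals through the adaptor MyD88. In plasmacytoid dendritic cells this leads to type I interferon, and in macrophages and microglia to interferon and NF-kB driven cytokines. Secreted interferon then acts through its receptor and factors that include STAT2 and IRF9 to raise a shared set of antiviral and antigen-presenting genes in many cell types.

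Total counts were 16.1 to 23.5 M in the gardiquimod libraries and 14.4 to 18.8 M in the saline libraries. Levels are given as CPM (counts per 1 M counts of the library) with TMM scaling, a correction for differences in RNA composition, and a difference is the log2 of gardiquimod over saline. The protocol label describes RNA from microglia and the molecule label nuclear RNA, while the tissue label is hippocampus. All 12 genes of a list for hippocampal fields had a count in all 14 libraries, with summed levels of 937 to 1060 CPM under gardiquimod and 922 to 1130 CPM under saline. Excitatory neuron genes summed to 13500 to 18300 CPM under gardiquimod and 15600 to 17900 CPM under saline. Homeostatic microglial genes summed to 2990 to 3740 CPM under gardiquimod and 3240 to 3710 CPM under saline. That sum is not a measure of microglial RNA alone, because it includes Sparc, which is also in the collagen and matrix list. Sparc was at 457 to 841 CPM under gardiquimod and 641 to 761 CPM under saline. P2ry12 of the same list was at 35.4 to 46.9 CPM and 31.8 to 44 CPM. The libraries therefore held RNA of whole tissue and not of microglia alone, and in such tissue fewer cells of a type and less RNA per cell cannot be told apart. Xist, the X-inactivation RNA, was at 395 to 689 CPM under gardiquimod and 357 to 899 CPM under saline, and the Y-linked Ddx3y did not pass 0.0559 CPM.

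Gardiquimod raised 4 genes in the female hippocampus, and all 4 belong to the interferon response. Irf7, the transcription factor that amplifies type I interferon, showed the largest change of the 4, and Bst2, B2m and H2-D1 rose with it. The test was edgeR's quasi-likelihood test with adjustment over 17218 genes, at an adjusted p under 0.05, and 0.0232% of the genes passed it. No gene fell by that test. At an unadjusted p under 0.05 there were 1044 genes, or 6.06%. Of these, 424 genes were higher, which is 2.46% of those tested, and 620 were lower, which is 3.6%. DESeq2 called 13 genes higher and 1, Tmcc3, lower. The higher ones were the 4 called by edgeR and Lgals3bp, Ifi27l2a, Usp18, Rtp4, Ifitm3, H2-K1, Isg15, H2-T23 and Irf9.

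Irf7 is a master regulator of type I interferon genes and is itself induced by interferon (chromosome 7, 141262706 to 141266481, minus strand, GRCm38, ENSMUSG00000025498). Its lowest, median and highest levels were 6.11, 8.96 and 13.2 CPM under gardiquimod, against 1.77, 2.44 and 5.49 CPM under saline. Every gardiquimod library stood above every saline library. The means were 9.13 ± 2.09 CPM under gardiquimod and 2.99 ± 1.4 CPM under saline (SD, n = 7 each), a log2 difference of 1.6 ± 0.26 (SE) with an edgeR adjusted p of 0.0121. Irf7 overlaps Phrf1 on the other strand, a gene with a mean of 42.5 CPM over the 14 libraries. No source used here says whether counting used strand.

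B2m encodes beta-2 microglobulin, the light chain shared by MHC class I molecules (chromosome 2, 122147686 to 122153083, plus strand, ENSMUSG00000060802). It was at 117, 137 and 151 CPM under gardiquimod (lowest, median, highest), against 86.8, 100 and 116 CPM under saline. The groups did not overlap, although the gap between the nearest libraries was narrow. The log2 difference was 0.44 ± 0.08 with an edgeR adjusted p of 0.0121.

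H2-D1, a classical MHC class I heavy chain that pairs with beta-2 microglobulin, moved with it (chromosome 17, 35262730 to 35267499, plus strand, ENSMUSG00000073411). Its levels were 64.3, 79.8 and 93.5 CPM under gardiquimod, against 38.3, 54.9 and 61.4 CPM under saline. These groups did not overlap either, and the log2 difference was 0.59 ± 0.11 with an edgeR adjusted p of 0.0485. MHC class I genes are close copies of each other, so reads could have been divided among them in a way the counts do not show.

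Bst2, also called tetherin, is a membrane protein that holds budding virus particles at the cell surface (chromosome 8, 71534255 to 71537456, minus strand, ENSMUSG00000046718). It was at 11.8, 20.0 and 28.3 CPM under gardiquimod, against 5.29, 8.11 and 14.6 CPM under saline. Only the lowest gardiquimod library, replicate 1 at 11.8 CPM, reached into the saline range, which was topped by replicate 6. The log2 difference was 1.20 ± 0.22 with an edgeR adjusted p of 0.0480.

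Of the 4 calls, those of Bst2 and H2-D1 lay close to the threshold, and Irf7 and B2m had an edgeR adjusted p of 0.0121. All 4 could be lost by leaving out 1 library. In an edgeR fit of the 14 female libraries alone Bst2 was not called, with an adjusted p of 0.149, and Gm11808 was called beside the other 3. No gene was called by edgeR when gardiquimod replicate 2 or saline replicate 1, 2, 5 or 7 was left out, with 614 to 1457 genes at an unadjusted p under 0.05, while 10 were called without saline replicate 4. Without 1 library the log2 difference of Irf7 stayed between 1.49 and 1.81 and that of B2m between 0.41 and 0.49, and where their calls were lost the adjusted p was 0.0521 to 0.0617. Without gardiquimod replicate 4, 5, 6 or 7, or without saline replicate 3, 2 genes were called.

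**Figure D1:**
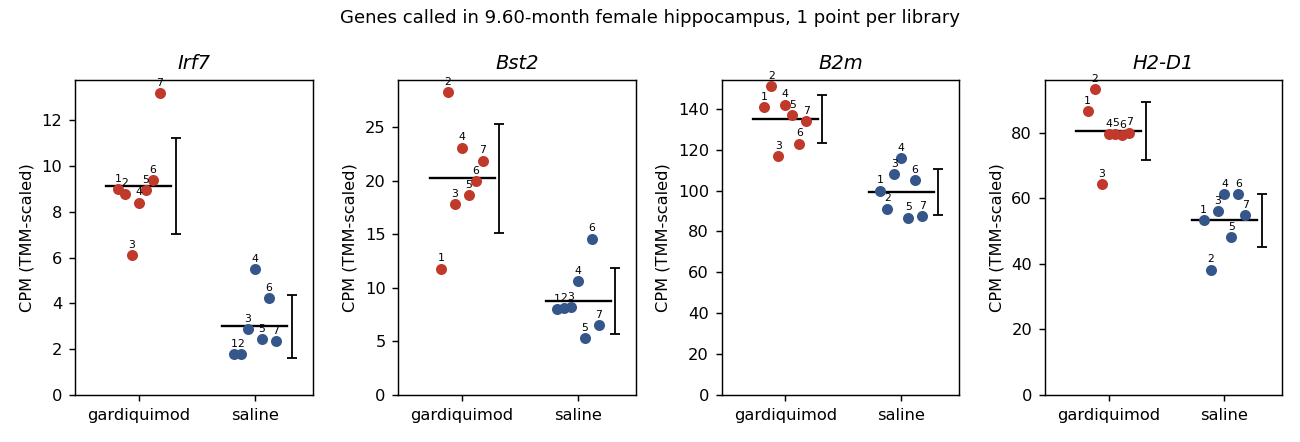
Levels in CPM of the 4 called genes in each female library, gardiquimod left of saline, with a line at the group mean and bars for the SD (n = 7 each). The groups do not overlap for Irf7, B2m and H2-D1, and for Bst2 they do, between 11.8 CPM in gardiquimod replicate 1 and 14.6 CPM in saline replicate 6.

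Because the 4 called genes moved together, their promoters were searched for the letters that interferon-activated factors recognise. The windows are the 250 bases before the RefSeq start site on GRCm38.p6, written 5′ to 3′ on the strand of the gene, and 3 are shown so that the matches can be seen in place. Capitals mark the core of the interferon-stimulated response element (ISRE), which is bound by STAT2 and IRF9 in a complex or by other IRF proteins and was searched as GAAA, any 2 bases and GAAA again. B2m is chr2:122147437-122147686 on the plus strand, Bst2 is chr8:71537473-71537722 on the minus strand and Irf7 is chr7:141266425-141266674 on the minus strand.
B2m: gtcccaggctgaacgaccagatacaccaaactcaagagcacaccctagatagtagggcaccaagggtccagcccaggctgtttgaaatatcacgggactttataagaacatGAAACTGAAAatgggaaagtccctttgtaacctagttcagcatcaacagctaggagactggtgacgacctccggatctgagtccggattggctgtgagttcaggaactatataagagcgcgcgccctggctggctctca
Bst2: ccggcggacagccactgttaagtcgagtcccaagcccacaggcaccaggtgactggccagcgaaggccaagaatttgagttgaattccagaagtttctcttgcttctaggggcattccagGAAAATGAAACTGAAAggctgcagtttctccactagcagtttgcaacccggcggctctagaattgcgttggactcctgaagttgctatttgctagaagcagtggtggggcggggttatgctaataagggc
Irf7: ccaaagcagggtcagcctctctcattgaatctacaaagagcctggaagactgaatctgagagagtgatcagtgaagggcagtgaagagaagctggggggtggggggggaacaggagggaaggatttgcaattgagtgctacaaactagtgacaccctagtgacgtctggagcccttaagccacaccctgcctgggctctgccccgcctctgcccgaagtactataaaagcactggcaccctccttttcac
The B2m window held 1 match, beginning 139 bases before the start site. The Bst2 window held 2 that overlap each other, beginning 130 and 124 bases before it, and a match to TTCNNNGAA (N is any base), the gamma-activated site, overlapped the first of them. Neither the Irf7 nor the H2-D1 window held these letters, and the RefSeq start used for them lay 57 and 364 bases from the gene start in the deposited table. The H2-D1 window, chr17:35262844-35263093, lies wholly inside the gene as given there, so the bases before that gene start were not searched.

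Searched on both strands, the ISRE letters occurred in 26 of 67 interferon-list genes with a promoter entry, which is 38.8%. The share was 2.98% over all 20481 promoters and 2.51% over the 12218 tested genes with an entry. In the MHC class I list it was 3 of 17 genes, or 17.6%. The TTCNNNGAA letters occurred in 23.9% of the interferon-list promoters and in 6.77% of all promoters. A match is a description of these letters only.

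**Figure D2:**
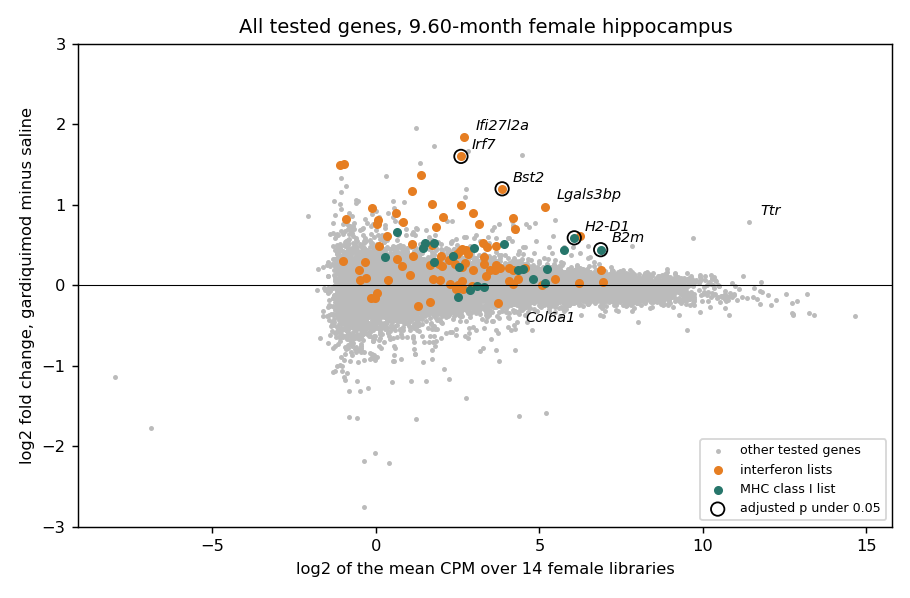
Log2 difference of gardiquimod over saline (vertical axis) against log2 of the mean CPM over the 14 libraries (horizontal axis) for the tested genes in females, with interferon-list and MHC class I genes coloured and called genes ringed. Drawn are all but 3 tested genes, which were at 0 in all 14 libraries. The 4 called genes are all above 0, and 79 of the 89 tested interferon-list genes lie above 0.

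The receptor and its pathway gave no such pattern. Tlr7 itself (chromosome X, 167304929 to 167330558, minus strand, ENSMUSG00000044583) was at 2.14, 3.24 and 3.76 CPM under gardiquimod (lowest, median, highest), against 2.46, 3.17 and 4.47 CPM under saline. The groups overlapped throughout, with a log2 difference of -0.10 ± 0.17 and an edgeR adjusted p of 0.918. Of 22 tested genes for TLR7 trafficking and signalling, none was called, none had an unadjusted p under 0.05, and 10 were above 0, with a median log2 difference of -0.02. The median over all tested genes was 0.01. Irak2, a kinase downstream of MyD88, had the smallest unadjusted p of the list, at 17.8 to 26.5 CPM under gardiquimod and 22 to 27.8 CPM under saline.

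The interferon response was then examined through 4 lists that cover its signalling, effectors, GTPases and membrane or secreted products. Of 96 listed genes 89 were tested, and 2, Irf7 and Bst2, were called by edgeR. DESeq2 called 9 of these genes, edgeR without saline replicate 4 called 7, and the other alternatives gave 0 to 4. With the 2 called genes included, 40 were higher at an unadjusted p under 0.05, or 44.9%, against 2.46% of all genes. The only gene lower at that level was Irf2, a repressor of interferon-induced transcription, at 12.1 ± 1.17 CPM under gardiquimod and 14.2 ± 1.17 CPM under saline. The median log2 difference of the 89 genes was 0.27, and 79 of them were above 0, or 88.8%, against 51.9% of all genes. The lists were chosen with earlier results of these data known, so these shares describe the lists and are not a test of them.

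Among the signalling genes, 8 of 18 were higher at an unadjusted p under 0.05, against 2.46% of all genes. Irf9, the DNA-binding subunit of the interferon-activated complex, was at 12.8, 14.7 and 17.1 CPM under gardiquimod, against 8.14, 10.4 and 12.3 CPM under saline. Those groups did not overlap, yet with a log2 difference of 0.49 ± 0.12 the edgeR adjusted p was 0.271.

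The effector list, which holds genes that block virus replication inside the cell, had no gene called by edgeR. Of its 38 tested genes 15 were higher at an unadjusted p under 0.05, against 2.46% of all genes. Above 0 were 36 of them, against 51.9% of all genes. Rtp4, a chaperone-like interferon-induced protein, was at 3.81 to 6.87 CPM under gardiquimod and 2.10 to 4.83 CPM under saline, with a log2 difference of 0.85 ± 0.19. Isg15, a ubiquitin-like modifier, was at 3.47 to 6.56 CPM under gardiquimod and 1.18 to 3.64 CPM under saline, with a log2 difference of 1.01 ± 0.24. Ifit3 and Ifit1 bind or help bind viral RNA. For Ifit3 the ranges were 17.4 to 35.5 CPM under gardiquimod and 9.42 to 20.4 CPM under saline. The adjusted p of these genes was 0.271 for Rtp4, 0.294 for Isg15 and 0.452 for Ifit3 by edgeR. DESeq2 called Rtp4 and Isg15, with an adjusted p of 0.0448 for Isg15, and edgeR called Rtp4 without saline replicate 4. The lowest adjusted p of Rtp4 over all alternatives was 0.0273, and Ifit3 was called in none of them.

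The GTPase list covers the guanylate-binding and immunity-related GTPases that attack the vacuoles of intracellular pathogens. None of its 14 tested genes was called, and 7 were higher at an unadjusted p under 0.05, against 2.46% of all genes. Its median of 0.36 was the highest of the 4 lists. Gbp3 was at 9.95, 10.9 and 15.3 CPM under gardiquimod, against 5.02, 7.43 and 11.6 CPM under saline, with a log2 difference of 0.53 ± 0.15 and an edgeR adjusted p of 0.527. Irgm1 was at 9.61 to 14.2 CPM under gardiquimod and 6.40 to 10.8 CPM under saline, so that both pairs of ranges overlapped.

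Membrane and secreted products included the genes nearest to the threshold. Lgals3bp, a secreted glycoprotein that binds galectin-3, was at 27.4, 50.8 and 64.4 CPM under gardiquimod, against 15.6, 26.1 and 31.6 CPM under saline. Only gardiquimod replicate 1 lay within the saline range, and the log2 difference of 0.98 ± 0.18 had an edgeR adjusted p of 0.0564. Ifi27l2a, a small interferon-induced membrane protein, was at 6.22, 10.4 and 13.7 CPM under gardiquimod, against 0.932, 1.89 and 8.53 CPM under saline. Its log2 difference of 1.85 ± 0.37 exceeded that of Irf7, but saline replicate 4 reached 8.53 CPM and the adjusted p was 0.101. Without saline replicate 4 the difference was 2.41 with an adjusted p of 0.000395, and over all alternatives the adjusted p was 0.000395 to 0.979. Ifitm3, which blocks virus entry from endosomes, was at 19.7 to 26.6 CPM under gardiquimod and 11.4 to 25.9 CPM under saline, and its highest saline library was again replicate 4. Cxcl10, a chemokine that draws activated T cells, was at 0.94 to 5.53 CPM under gardiquimod and 0.847 to 1.98 CPM under saline, with a log2 difference of 0.90 ± 0.42 and an adjusted p of 0.795. Gardiquimod replicate 7 held the 5.53 CPM, the other gardiquimod libraries were at 2.11 CPM or less, and without that replicate the log2 difference was 0.43.

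**Figure D3:**
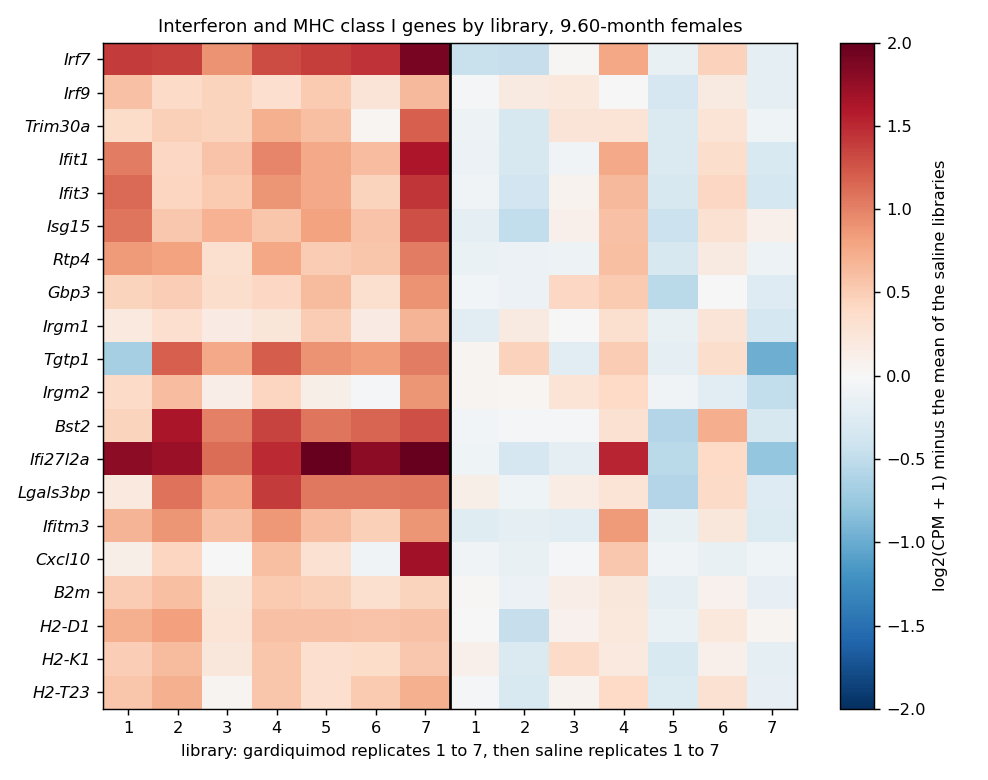
Heat map of 20 interferon and MHC class I genes (rows) in each female library (columns, gardiquimod replicates left of saline replicates), coloured by log2(CPM + 1) minus the mean of the saline libraries. Red prevails in the gardiquimod columns, and among saline columns replicate 4 is red for Ifi27l2a, at 8.53 CPM, and for Ifitm3, at 25.9 CPM.

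Over all 89 tested interferon-list genes, the mean log2 level of a library was set against the mean of the saline libraries. It was 0.15 to 0.58 in the gardiquimod libraries and -0.19 to 0.29 in the saline libraries. Saline replicate 4, at 0.29, stood above 5 of the 7 gardiquimod libraries, and the other saline libraries did not exceed 0.09.

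Antigen presentation by MHC class I followed the interferon genes. B2m and H2-D1 were called among 22 tested genes, 10 were higher at an unadjusted p under 0.05, 18 were above 0 and the median log2 difference was 0.32. Over all tested genes 0.0232% were called, 2.46% were higher at that p and 51.9% were above 0. The summed level of the MHC class I list was 460 to 579 CPM under gardiquimod and 359 to 450 CPM under saline, without overlap. That sum includes the called genes and is not independent of their calls. B2m averaged 135 CPM under gardiquimod and 99.2 CPM under saline, and H2-D1 80.5 and 53.4 CPM. H2-K1, another classical heavy chain, was at 52.9, 63.9 and 70.8 CPM under gardiquimod, against 36.4, 48.5 and 59.2 CPM under saline. H2-T23, the mouse Qa-1 heavy chain, was at 12.8, 18.5 and 20.7 CPM under gardiquimod, against 9.81, 11.9 and 16.6 CPM under saline. Ranges of both genes overlapped. Their log2 differences were 0.44 ± 0.10 and 0.51 ± 0.12, and the edgeR adjusted p was 0.271 for both. The peptide transporter gene Tap1 averaged 5.80 ± 0.85 CPM under gardiquimod and 4.51 ± 0.71 CPM under saline, with a log2 difference of 0.36 and an adjusted p of 0.791.

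Libraries of the groups did not overlap for 13 genes on the higher side, which is 0.0755% of those tested, and for 2 on the lower side, which is 0.0116%. The higher genes were B2m, Irf7, H2-D1, Irf9, Ctss, H2-M3, H2-T22, H2-Q4, Becn1, Skida1, Gm11808, Gm11847 and Gm10232. The MHC class I list thus supplied 5 of the 13. The lower genes were Slc44a2, a choline transporter family member, and the pseudogene Rnf170-ps. Those of the 15 outside the naming rule are given because this count turned on them, after their values were seen.

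MHC class II, which presents peptides to CD4+ T cells, gave 0 called genes among 10 tested by edgeR, 0 at an unadjusted p under 0.05 and 3 above 0. Cd74, the class II invariant chain, was at 2.80, 8.51 and 14.3 CPM under gardiquimod, against 6.09, 8.03 and 14.2 CPM under saline. The groups overlapped almost completely. NF-kB targets and cytokines gave 0 called genes of 17 and 0 at an unadjusted p under 0.05, with a median of 0.04. Icam1, an adhesion molecule under NF-kB control, was at 2.69 to 3.73 CPM under gardiquimod and 2.02 to 3.35 CPM under saline.

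Microglial genes were described through homeostatic, disease-associated and complement lists. None of 18 homeostatic genes was called. P2ry12, the ADP receptor that marks resting microglia, was at 35.4, 45.4 and 46.9 CPM under gardiquimod, against 31.8, 36.7 and 44.0 CPM under saline, with an edgeR adjusted p of 0.791. In the disease-associated list 0 of 22 genes was called, 5 were higher and 1 lower at an unadjusted p under 0.05, and 18 were above 0. Over all tested genes 2.46% were higher and 3.6% lower at that p, and 51.9% were above 0. Ctss, the lysosomal protease cathepsin S, was at 102, 109 and 123 CPM under gardiquimod, against 79.3, 96.9 and 100 CPM under saline, with no overlap, a log2 difference of 0.24 ± 0.06 and an adjusted p of 0.452. Trem2, the lipid-sensing receptor of this state, was at 19.1 to 25.5 CPM under gardiquimod and 20.0 to 24.3 CPM under saline. Apoe, the main lipid carrier of the brain, was at 3130 to 3940 CPM under gardiquimod and 3100 to 3880 CPM under saline. Of 12 complement genes 0 were called and 2, C1qa and C1qc, were higher at an unadjusted p under 0.05, C1qa at 66.3 to 80.1 CPM under gardiquimod and 54.3 to 76.0 CPM under saline.

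Glial and neuronal lists held no called gene. Over all tested genes 51.9% were above 0 and 3.6% were lower at an unadjusted p under 0.05. The myelin list had 6 of 22 genes above 0 and a median of -0.05, and Mbp, a major myelin protein gene, was at 2560, 3060 and 3790 CPM under gardiquimod, against 2800, 3550 and 5400 CPM under saline. None of 12 oligodendrocyte precursor genes and 2 of 23 cholesterol synthesis genes were above 0, with medians of -0.10 and -0.06. Of 14 astrocyte genes 2 were above 0 and 3 were lower at an unadjusted p under 0.05, among them Gja1, the gap junction protein connexin 43, at 233 to 305 CPM under gardiquimod and 271 to 338 CPM under saline. Excitatory neuron genes had a median of 0.04, inhibitory neuron genes 0.06 and immediate early genes -0.19, with 0 genes at an unadjusted p under 0.05 in these 3 lists. The immediate early gene Fosb, a readout of recent neuronal activity, was at 5.41 to 9.71 CPM under gardiquimod and 5.02 to 11.5 CPM under saline.

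On the lower side the genes with the smallest unadjusted p did not pass the adjusted threshold in edgeR. Tmcc3, which encodes a membrane protein of the endoplasmic reticulum, was at 51.2, 52.1 and 62.9 CPM under gardiquimod, against 57.6, 61.9 and 68.7 CPM under saline, with a log2 difference of -0.22 ± 0.05 and an adjusted p of 0.307. Cyp2d22, a cytochrome P450, was at 40.1, 48.6 and 58.4 CPM under gardiquimod, against 58.1, 61.1 and 66.2 CPM under saline, so that the ranges met at the top of the gardiquimod libraries and the bottom of the saline libraries. Alpl, an alkaline phosphatase of vessels, was at 6.67 to 9.31 CPM under gardiquimod and 7.89 to 18 CPM under saline. Its log2 difference was -0.53 ± 0.14, and -0.61 to -0.25 over the alternatives. Saline replicates 4 and 5 held 15.1 and 18 CPM, and the other saline libraries 7.89 to 11.1 CPM. Collagen and matrix genes were lower at an unadjusted p under 0.05 in 6 of 18 cases, with a list median of -0.19. Glucocorticoid targets were lower at that p in 2 of 18, with a median of -0.20. The share over all tested genes was 3.6%. Zbtb16, a glucocorticoid-induced transcription factor, was at 34.5 to 45.9 CPM under gardiquimod and 35.7 to 61.2 CPM under saline.

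**Figure D4:**
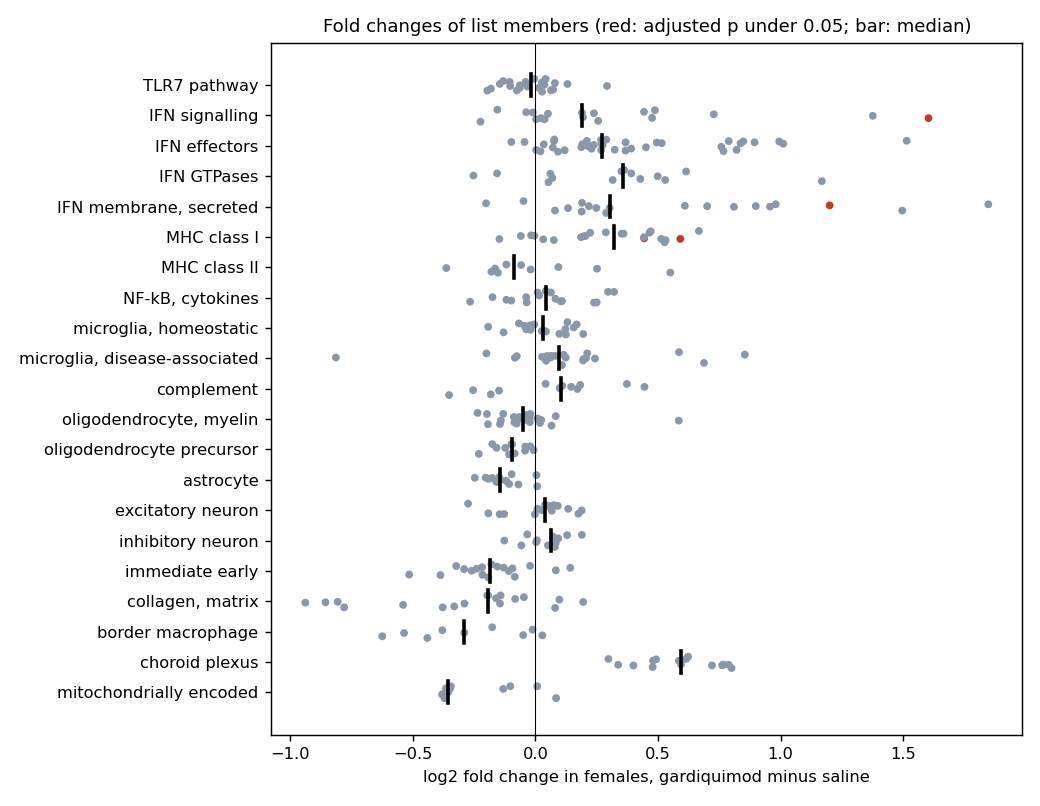
Log2 difference of gardiquimod over saline in females for each tested gene (points) of 21 gene lists (rows), with the list median as a bar and called genes in red. The interferon and MHC class I lists have medians between 0.19 and 0.36, the choroid plexus list 0.59 and the collagen list -0.19.

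RNA of tissue that borders the hippocampus differed widely among libraries of both groups. The choroid plexus, which lines the ventricles and secretes cerebrospinal fluid, had summed marker levels of 165 to 7440 CPM under gardiquimod with a median of 5650 CPM, and 320 to 6840 CPM under saline with a median of 3420 CPM. All 15 of its genes were above 0, 0 of them called and 0 at an unadjusted p under 0.05, with a median log2 difference of 0.59. Ttr, the thyroid hormone carrier that is its most abundant product, was at 21.2 CPM in gardiquimod replicate 1 and at 2480 to 5580 CPM in the other gardiquimod libraries, against 78.6, 219 and 161 CPM in saline replicates 4, 5 and 7 and 2110 to 4880 CPM in the rest. The first principal component carried 23.9% of the variance and was led by Ttr and other choroid plexus genes.

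The called genes were then read beside those markers. Gardiquimod replicate 1, the library with the lowest Ttr, had 9.01 CPM of Irf7 and 141 CPM of B2m, above every saline library. The same held for H2-D1, at 86.6 CPM. Its Bst2, at 11.8 CPM, was the lowest of the gardiquimod libraries and lay within the saline range. In saline replicates 4, 5 and 7, also low in Ttr, Bst2 was at 10.6, 5.29 and 6.52 CPM, against 8.05 to 14.6 CPM in the rest. With Ttr as a covariate Irf7, B2m and Bst2 were called, and the log2 difference of Bst2 was 1.06 ± 0.19, against 1.20 ± 0.22 without it. H2-D1 then had an edgeR adjusted p of 0.0583, within a range of 0.000451 to 0.735 over all alternatives. Without the 4 libraries under 500 CPM of Ttr only Ifi27l2a was called by edgeR, with 10 libraries left, and the log2 differences were 1.76 for Irf7, 0.41 for B2m, 1.15 for Bst2 and 0.60 for H2-D1.

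Pituitary RNA was present as well. Prl, the prolactin gene, was at 0.11 to 64.3 CPM under gardiquimod and 2.28 to 272 CPM under saline. Leaving out the 4 libraries above 30 CPM of Prl left 0 genes called, with 620 at an unadjusted p under 0.05, while the log2 differences were 1.56 for Irf7, 0.44 for B2m, 1.04 for Bst2 and 0.58 for H2-D1. For blood-derived immune cells 5 of 18 listed markers were tested and 6 had a count in all 14 libraries, with summed levels of 10.9 to 22.5 CPM under gardiquimod and 10.2 to 18 CPM under saline. Red blood cell genes summed to 9.34 to 155 CPM under gardiquimod and 20.4 to 68.6 CPM under saline. Border macrophage genes summed to 19.9 to 40.6 CPM under gardiquimod and 27.5 to 54.6 CPM under saline. The percent of counts from mitochondrial genes was 5.18 to 11 under gardiquimod and 7.12 to 15.3 under saline, and its part in the results was not tested. In the lists for these tissues the median log2 difference was 0.14 for ependyma, 0.52 for red blood cells and -0.48 for blood-derived immune cells. It was -0.29 for border macrophages, -0.02 for endothelium and -0.14 for mural cells and fibroblasts, with 0 genes called in these 6 lists. At an unadjusted p under 0.05 they held 1 endothelial gene on the higher side, Bsg. On the lower side they held 1 gene of the mural and fibroblast list, Cspg4, which is also in the oligodendrocyte precursor list.

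**Figure D5:**
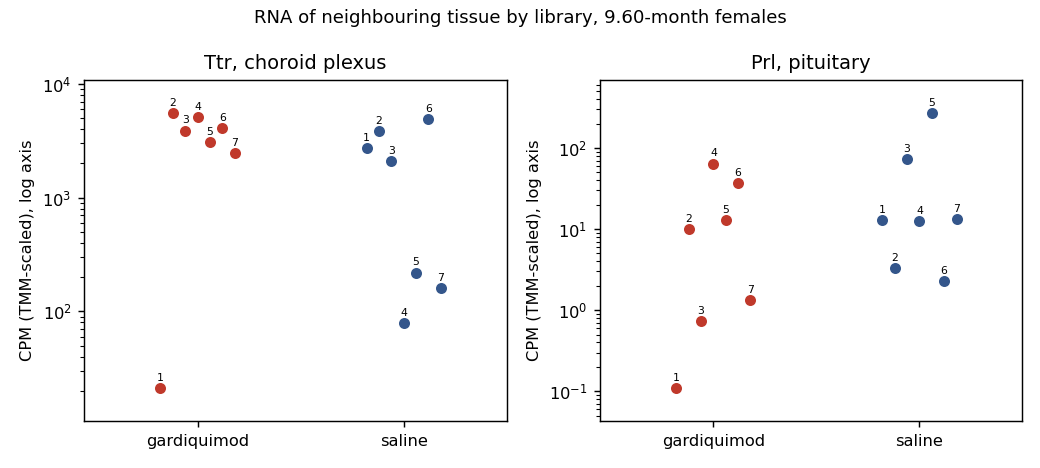
Levels in CPM on log axes of Ttr, the choroid plexus marker, and Prl, the pituitary marker, in each female library, gardiquimod left of saline. Low Ttr occurs in 1 gardiquimod library and 3 saline libraries, and Prl above 30 CPM in 2 libraries of each group.

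Finally, the female response was set beside that of the 12.12-month males, in which edgeR called 38 genes, or 0.221% of those tested. Of these 29 were higher, or 0.168%, and 9 lower, or 0.0523%. Males shared all 4 of the female calls, and these made up 10.5% of the male calls. Log2 differences in females and males were 1.6 and 1.67 for Irf7, 0.44 and 0.55 for B2m, 1.20 and 1.21 for Bst2, and 0.59 and 0.56 for H2-D1. The difference between the responses of these genes was not called, with adjusted p of 0.949, 0.658, 0.993 and 0.950. The interferon lists had medians of 0.27 in females and 0.55 in males, with 2 and 11 of the 89 genes called higher. For the female minus male difference edgeR called 0 of the 89. The medians and counts therefore do not establish a difference in size between the responses.

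Of the 29 genes called higher in males, 19 were above 0 in females and 16 were higher there at an unadjusted p under 0.05. Their medians were 0.44 in females and 0.72 in males. Genes picked by the male test favour larger male values, so these medians do not compare the size of the responses. Over all tested genes 51.9% were above 0 in females and 2.46% were higher at that p. Those below 0 in females included Chil1, an astrocyte-secreted chitinase-like protein, at -0.21 in females and 0.37 in males, and Tsc22d3, a glucocorticoid-induced gene, at -0.19 and 0.48. The 9 genes called lower in males included Homer1, a postsynaptic scaffold protein, at 0.01 in females and -0.38 in males, and 8 of the 9 were above 0 in females. These genes were taken from the male calls after their values were seen.

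A direct test of female minus male response called 1 gene, Col6a1, or 0.00581% of those tested, and 16.2% had an unadjusted p under 0.05. Col6a1 encodes a chain of collagen VI, a matrix protein of vessels and meninges (chromosome 10, 76708792 to 76726168, minus strand, ENSMUSG00000001119). In females it was at 11.5, 15.7 and 19 CPM under gardiquimod, against 16.1, 21.5 and 33.6 CPM under saline, a log2 difference of -0.54 ± 0.14, and its adjusted p of 0.452 missed the threshold. In males it rose by 0.72 ± 0.15, with an adjusted p of 0.0262, and the female minus male difference was -1.26 ± 0.20, with an adjusted p of 0.0144. Without the 4 female libraries low in choroid plexus RNA, edgeR called 0 genes in that test, with 2442 at an unadjusted p under 0.05. For Col6a1 the female log2 difference was then -0.29 and the female minus male difference -1.01, with an adjusted p of 0.1, the highest over all alternatives. Over all libraries DESeq2 called 153. Male saline replicates 1, 4, 5 and 6 were also low in Ttr, at 96.1, 111, 131 and 128 CPM. The lowest male gardiquimod library, replicate 5, was at 996 CPM. Leaving out those male libraries was not tested. With Ttr as a covariate over all 28 libraries the female minus male difference of Col6a1 was -1.29, with an edgeR adjusted p of 0.0121.

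The collagen and matrix list had a median of -0.19 in females and 0.51 in males, and Col6a2, Col1a1 and Col1a2 had female values of -0.78, -0.94 and -0.81 beside male values of 0.79, 0.73 and 0.93. Their female minus male differences had adjusted p of 0.121, 0.144 and 0.136 by edgeR, while DESeq2 called all 3, with adjusted p of 0.0197, 0.0432 and 0.0297. In females Col6a2 was at 4.75 to 10.2 CPM under gardiquimod, against 24.9 and 17.2 CPM in saline replicates 4 and 5 and 7.89 to 10.7 CPM in the other saline libraries. Without saline replicate 4 the female values of Col6a2, Col1a1 and Col1a2 were -0.51, -0.62 and -0.51. They were -0.23, -0.36 and -0.34 without the 4 libraries low in choroid plexus RNA, which include both of those saline replicates. For MHC class II, H2-Eb1 was at -0.02 in females and 1.33 in males, and Cd74 at -0.18 and 1.34, with adjusted p of 0.141 and 0.144 for the differences by edgeR. DESeq2 gave 0.0356 and 0.0508, so it called H2-Eb1. The female value of Cd74 was 0.21 without the libraries low in choroid plexus RNA.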

How the data were processed

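Gene expression was measured by QuantSeq 3′ forward sequencing, per the labels' protocols. Its reads begin close to the poly(A) tail, and no correction for gene length was made. The authors deposited raw counts per gene for 54532 genes. GRCm38, mm10 and DESeq2 1.38.3 are named, per the submitters' processing notes. Aligner, counting program and annotation release: not given in the sources used here. No molecular identifiers are mentioned, so precision is that of counting and of the spread between libraries. No 2 female columns were identical, and their correlations across genes were 0.979 to 0.995.

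The tests ran in edgeR 4.0.16 under R 4.3.3, with DESeq2 1.42.0 and limma 3.58.1 as alternatives. All 28 libraries of the agonist experiment entered 1 fit with 1 mean per group of 7. Genes were filtered with filterByExpr, which left 17218, scaled with TMM (trimmed mean of M values) and fitted with robust quasi-likelihood dispersions (common biological coefficient of variation 0.132). Contrasts were 2-sided, and a call needed an adjusted p under 0.05 by the Benjamini-Hochberg method. Standard errors were derived from each fold change with its F value. CPM use the effective library size. The procedure was tested on simulated data. The microglia and inhibitor experiments were not used.

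The members and the 32 gene lists were chosen with earlier results of these data known. Named genes were 10 general ones, each called gene, the 8 of smallest p in each direction among others of at least 4 CPM, the 4 of smallest p from each TLR7, interferon and MHC list, the 2 from each other list (at least 2 CPM), and genes called for a female minus male difference; 87 resulted. Irf2, Tap1, Col1a1, Col1a2 and H2-Eb1 lie outside this rule and were chosen after their values were seen. The values of 1 named gene are not reported here. Alternatives were DESeq2, limma-voom, another scaling, other filters, the female libraries alone, a Ttr covariate and leaving out each female library, and 2 library sets were left out as alternatives added after seeing the data.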

Additional observations from a re-analysis of the deposited data

Results flagged for a closer look

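Of the named genes 86 were examined in both female groups of 7 for a library set apart from the rest, by Dixon's ratio of the gap to the range. Of 172 gene and group pairs 16 passed the 95% critical value, and chance alone flags about 1 in 20 groups.

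Saline replicate 4 was set apart 4 times, on 3 occasions by interferon genes: Cxcl10 at 1.98 CPM, Ifi27l2a at 8.53 CPM and Ifitm3 at 25.9 CPM were each its group's highest value. The fourth was Nsdhl, a cholesterol synthesis enzyme, at 22.5 CPM. Among gardiquimod libraries, replicate 7 had the highest Cxcl10, at 5.53 CPM, and the highest Ifit1, at 14 CPM. Tgtp1, an interferon-induced GTPase, was lowest in gardiquimod replicate 1, at 0.385 CPM.

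Saline replicate 2 had the highest mitochondrial transcripts, with mt-Co1 at 49600 CPM and mt-Cytb at 21100 CPM, and the lowest Apoe, at 3100 CPM. Other libraries stood apart for 1 gene or a pair. Tmcc3 reached 62.9 CPM in gardiquimod replicate 4, which also had the highest S100a9, a neutrophil gene, at 4.89 CPM. Calb2, the calretinin gene, reached 58.8 CPM in gardiquimod replicate 2. P2ry12 was lowest in gardiquimod replicate 5, at 35.4 CPM. Myrf, a myelin regulator, was lowest in saline replicate 1, at 39.9 CPM, and Fam183b, a cilium gene, was lowest in saline replicate 5, at 3.46 CPM.

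Between the sexes, the response of Col6a1 differed by -1.26 on the log2 scale (female minus male), with an edgeR adjusted p of 0.0144, and age cannot be told apart from sex there.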

How the results depend on the processing

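No paired analysis was possible because replicate numbers only follow the order of the samples. Of 23 alternatives, 21 were planned. The count of genes called in females, 4, became 14 with DESeq2, 1 without a filter on low counts, 1 without the 4 libraries low in choroid plexus RNA and 0 without the 4 with most pituitary RNA, and leaving out each library gave 0 to 10. It was 3 to 6 in the other settings. With the 14 female libraries alone it was 4, but these were Gm11808, Irf7, H2-D1 and B2m, so that 3 were shared with the main fit. The count for the difference between sexes, 1, became 153 with DESeq2, 2 with limma-voom, 9 without a filter and 2 with the Ttr covariate. It was 0 without the 4 female libraries low in choroid plexus RNA. Leaving out each female library gave 1 to 35, the highest without gardiquimod replicate 5. Without saline replicate 7 it was 13 and without saline replicate 2 it was 8. The causes were not tested.

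Irf7 was called in 15 of the 23 alternatives, B2m in 16, Bst2 in 8 and H2-D1 in 8, and their log2 differences stayed above 0 in all of them, with adjusted p of 7.8e-05 to 0.633 for Irf7 and 7.8e-05 to 0.551 for B2m. The median of the interferon lists was 0.22 to 0.33. Among genes that were not called, the sign changed for Calb2 (-0.0339 to 0.272 over the libraries left out), for Cd86 (-0.04 to 0.159) and, without the libraries low in choroid plexus RNA, for Cd74 (0.21), Reln (0.0124) and S100a9 (0.00271). Genes under a few CPM, such as Cxcl10, rest on few reads per library.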

Other observations

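Mitochondrially encoded transcripts and clock output genes were not described above. Of 13 mitochondrial genes 2 were above 0, with a median log2 difference of -0.36 and 0 called by edgeR, and mt-Co1 was at 14400, 22900 and 33600 CPM under gardiquimod (lowest, median, highest), against 21500, 26000 and 49600 CPM under saline. Of 15 circadian genes 3 were above 0 and 3 were lower at an unadjusted p under 0.05, against 51.9% and 3.6% of all tested genes. Per3, a repressor of the clock, was at 28.2 to 41.2 CPM under gardiquimod and 33.5 to 49.1 CPM under saline. Reactive astrocyte genes had a median of 0.01 and hippocampal field genes 0.02, with 0 called in either list. Heat shock genes went the other way in value, with 9 of 11 above 0 and a median of 0.10. Hspd1, a mitochondrial chaperone, was at 105 to 134 CPM under gardiquimod and 89.1 to 120 CPM under saline.

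Growth hormone RNA accompanied prolactin RNA. Gh reached 150 CPM in saline replicate 5, the library with the highest Prl, at 272 CPM.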
